A study of Mus musculus with 7 samples.

Results

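Ribosomal protein (RP) genes were examined as a set of housekeeping promoters in granule cells of the mouse cerebellum. Members were the protein-coding autosomal genes whose symbol reads Rpl or Rps followed by a digit, with Rpsa and Rplp0 to Rplp2 added and the Rps6k kinases left out. This rule took 88 of the 20807 protein-coding autosomal genes in GENCODE release M21. Of these, 43 encode proteins of the large ribosomal subunit and 30 encode proteins of the small subunit, and these 73 are called core RP genes here. The other members were 8 paralogs, 6 genes whose symbol ends as that of a pseudogene does, and Rps19bp1, which encodes a protein that binds an RP and is not itself part of the ribosome. Another 4 RP genes (Rpl10, Rpl36a, Rpl39 and Rps4x) lie on the X chromosome and fell outside the rule.

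Ribosomes translate mRNA into protein, and each subunit is built from ribosomal RNA and one copy of most RPs. The cell needs RPs in matched amounts, and their genes are transcribed in nearly all cells from short promoters that often lack a TATA box. Many RP mRNAs start with an uninterrupted run of pyrimidines, the 5′ terminal oligopyrimidine tract, through which growth signals control their translation. Granule neuron progenitors (GNPs) divide in large numbers in the external granule layer after birth, and growing, dividing cells keep making ribosomes.

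The study used ChIP-seq, which recovers DNA fragments bound to a protein or histone mark, in cells from pups at postnatal day 7, with the strain labelled C57BL/6 and given as C57BL/6N in the study's methods. Peaks were analysed for H3K27ac (acetylated lysine 27 of histone H3, a mark of active promoters and enhancers) in wild-type (WT) GNPs, for the chromatin remodeller Chd7 in WT and in Chd7-deficient GNPs, and for topoisomerase Top2b in WT and Chd7-deficient cerebellar granule neurons (CGNs), which were grown from GNPs for 48 hours without Shh. The labels name the mutant as Chd7 KO, and in the study's methods Chd7-deficient granule cells carry both floxed Chd7 alleles and Atoh1-Cre, a driver active in the granule lineage, with Chd7 f/f as WT. Each condition had 1 library, and the number of pups behind it was not given.

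With 1 library per condition, no test between conditions was possible, and Wilson and Poisson intervals, at 95%, cover counting error only. The tables held 31400 H3K27ac peaks, 1946 Chd7 peaks in WT and 96 in Chd7-deficient GNPs, and 17030 and 21505 Top2b peaks in WT and Chd7-deficient CGNs. H3K27ac peaks lay at all 8 GNP markers, at 0 of 3 Purkinje cell markers, at both interneuron markers (Pax2 and Gad1), and at 1 of 3 astroglial, 2 of 3 oligodendrocyte, 1 of 2 microglial and 1 of 2 endothelial markers. The part of other cells in the values at RP genes was not tested. A peak was given to a gene when its centre lay between 5 kb upstream of the gene and 1 kb downstream of it.

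The sequences at the starts of RP genes are shown first, because the pyrimidine run at the start is the feature for which this family is known. Each line gives 30 bases of GRCm38 from 15 bases before the annotated start of the principal transcript, 5′ to 3′ on the gene's strand, with the longest run of C and T in capitals. Within these 30 bases, Rpl32, Rps24, Rpl22 and Rpl4 had the longest runs among the core genes. They were chosen for that after their sequences were read. Rpl19, Rps26, Rpl21 and Rpl27 were among the 5 genes with the highest H3K27ac, of which Rps14 is not printed, and Rps19, Rps29, Rpl15 and Rpl7a had a Chd7 peak.
Rpl32 (chr6:115808733-115808762, minus): gcgccgccgccgCCTCTTCCTTCTTCCTCg
Rps24 (chr14:24490703-24490732, plus): cggcagtgagcggTCCTCTTTTCCTCCTCT
Rpl22 (chr4:152325838-152325867, plus): gcgcctgcgtagtgcgCCCCCCTCCCTTTC
Rpl4 (chr9:64173360-64173389, plus): agtgacaagTCTTTCCTTTTCCTgtgggag
Rpl19 (chr11:98026909-98026938, plus): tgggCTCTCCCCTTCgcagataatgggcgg
Rps26 (chr10:128626733-128626762, minus): taatcaCTTCCTggtttgggaatgtaacat
Rpl21 (chr5:146832875-146832904, plus): acgacgcaaggtaacgTCagcacgctacgg
Rpl27 (chr11:101442283-101442312, plus): gcagtgcccgaCCCTCCCTgacgagctcct
Rps19 (chr7:24884356-24884385, plus): gccagacacacaaggCTCaaatgaaggccg
Rps29 (chr12:69159172-69159201, minus): agcacgcggaCCaatgttgtcgcacggcgt
Rpl15 (chr14:18271053-18271082, minus): gCCCCaagaggcacagtgcggctacaatgc
Rpl7a (chr2:26910749-26910778, plus): gcctgCTCTCgcgatatctgcggccactta

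The runs reached 17 bases in Rpl32 and Rps24 and 14 in Rpl22 and Rpl4, against 11 in Rpl19 and 2 in Rpl21 and Rps29. Those of Rps24 and Rpl22 reach the last base of the window, so they may be longer than the lengths given. The median over all 88 members was 5 bases. A run of at least 8 bases lay in this window in 28 of 88 RP genes (31.8%) and in 11.7% of all protein-coding autosomal genes. The share was 11.1% among the 9661 genes with H3K27ac at a start. Annotated starts can lie some bases from the start that cells use, so a short run in this window does not show that the mRNA lacks one. The window also holds bases before the annotated start, and some counted runs lie wholly before it, as in Rpl19, Rpl13 and Rpl34. The 31.8% is therefore the share with a run near the annotated start, and not the share of mRNAs that begin with one.

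In the 300 bases from 250 before to 50 after the start, the ETS family motif CCGGAA, read on both strands, lay in 38 RP genes (43.2%). It lay in 18.5% of all genes and in 30.6% of genes with H3K27ac at a start. The YY1 motif AAGATGGC lay in 6.82% of RP genes and 5.45% of genes with H3K27ac at a start. The Sp/KLF motif GGGCGG lay in 47.7% of RP genes, against 65.5% of genes with H3K27ac at a start and 46.1% of all genes. CCAAT lay in 28.4% of RP genes and 38.3% of those with H3K27ac at a start, and TATAAA in 10.2% and 6.52%. The observed over expected frequency of CpG had a median of 0.827 in RP promoters, close to the 0.800 of genes with H3K27ac at a start and above the 0.571 of all genes. GC content had a median of 55.3% in RP promoters, 61.3% in genes with H3K27ac at a start and 56.0% in all genes. RP promoters thus had the CpG frequency of other acetylated promoters at a lower GC content, and the differences in motif shares were not tested. A match is a run of letters and not a bound site.

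H3K27ac lay at nearly every RP gene. A peak fell in the window of 79 of 88 members (89.8%, Wilson 81.7 to 94.5%), against 54.1% of all protein-coding autosomal genes. All 73 core genes had one, 43 of 43 for the large subunit and 30 of 30 for the small subunit. With the peak required within 1 kb of a protein-coding transcript start of the gene itself, 78 members had one, against 46.4% of all genes. All 73 core genes had a peak there too.

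The 9 members without a peak were all outside the core. They were the 6 genes with pseudogene-like symbols (Rpl10-ps3, Rpl36-ps4, Rpl36a-ps1, Rpl9-ps1, Rpl9-ps6 and Rps12-ps3) and 3 paralogs, Rpl10l, Rpl39l and Rps27rt. Rpl10l and Rpl39l are known as RP paralogs of male germ cells. The other 5 paralogs had a peak in the window. Among them, Rps27l reached a fold enrichment over the local background of 10.5, Rpl36al 10.3, Rpl22l1 7.85 and Rpl7l1 4.87. Rpl3l, a paralog of striated muscle, had a single peak of 5.61, whose summit lay 3612 bp upstream of its nearest start, at the start of its neighbour Ndufb10. No peak lay within 1 kb of a start of Rpl3l itself. The peak of Rpl36al lay at the divergent start of Mgat2, so the signals of these neighbours cannot be told apart.

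Annotated pseudogenes named after RP genes gave the contrast. Most are intronless copies of RP mRNAs. A peak fell in the window of 14 of 249 (5.62%), and within 1 kb of the start of 3 (1.20%). By the same measure, the start of the annotated gene, 70 of 73 core genes (95.9%) had one. The authors kept reads with a single alignment, so copies that match another place exactly could not gather reads, and the part of this in the low share was not tested.

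**Figure D1:**
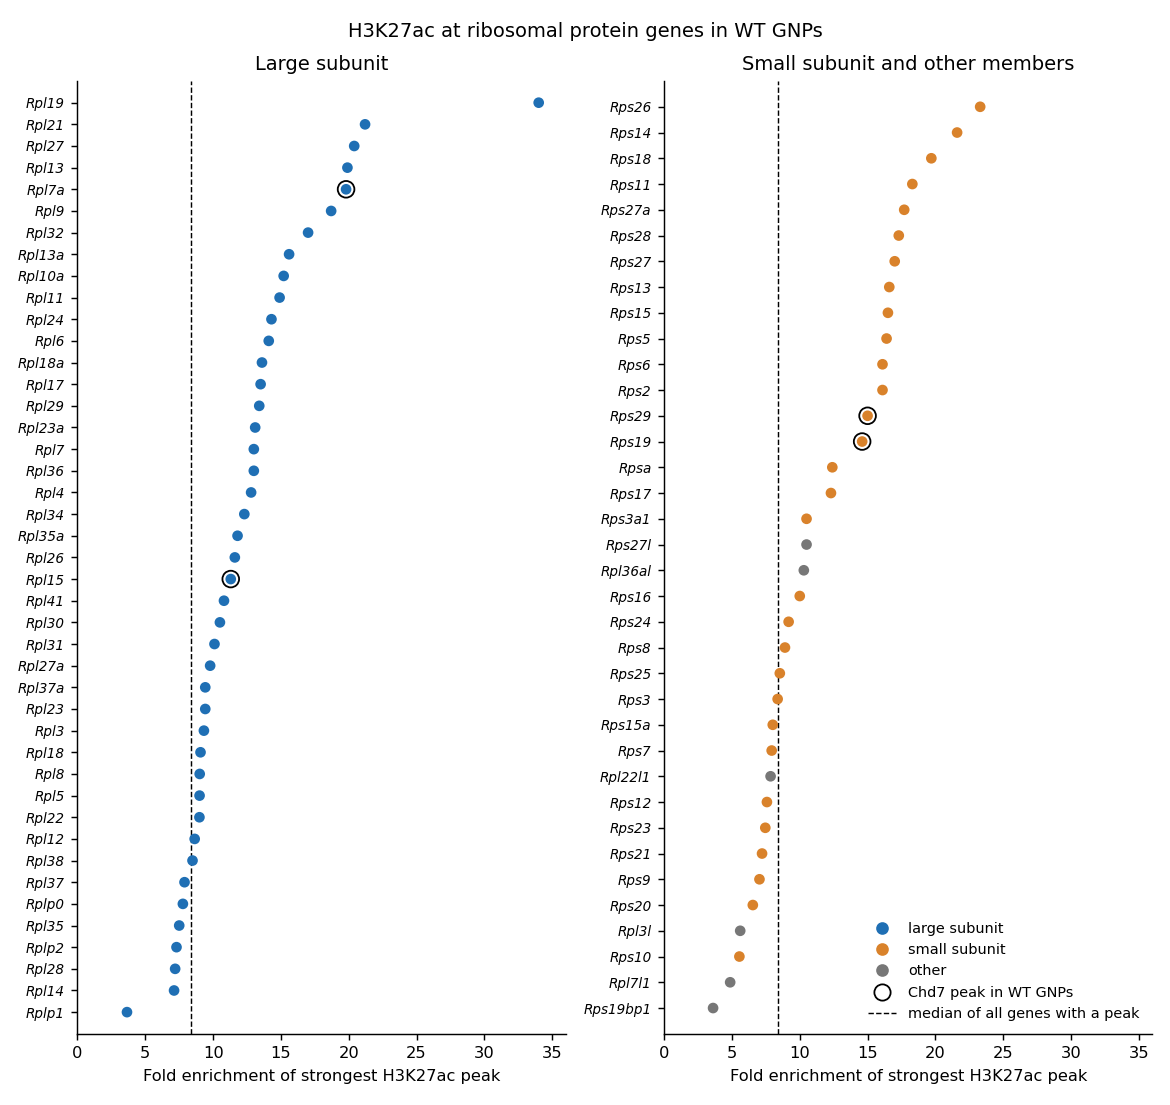
Fold enrichment over the local background of the strongest H3K27ac peak in the window of each of the 79 RP genes with a peak, with large subunit genes on the left and small subunit and other genes on the right. Rings mark the 4 genes with a WT Chd7 peak, and the dashed line marks the median of all genes with a peak, 8.36. Rpl19 stands alone at 34.0, and 58 of 73 core genes lie to the right of the line.

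The strongest peak per gene was somewhat higher at RP genes than across genes. Its fold enrichment had a median of 10.8 (quartiles 8.42 and 15.4, n = 79 genes), against 8.36 (5.35 and 13.2) over the 11262 genes with a peak. It lay above the all-gene median in 60 of 79 RP genes (75.9%) and in 58 of 73 core genes (79.5%). The median pileup, the scaled coverage by fragments at the summit, was 98.8 against 69.7, and the median width 1215 against 1126 bp. By width alone, the median RP gene stood at percentile 54.7 of all genes with a peak, against 64.9 by fold enrichment and 70.4 by pileup. RP peaks were therefore higher more than they were wide. The quartiles of the subunits overlapped, with medians of 11.6 (9.01 to 14.2) for the large and 12.3 (8.10 to 16.6) for the small subunit.

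Rpl19, a protein of the large subunit, had the highest H3K27ac of all members, enriched 34.0-fold, with a pileup of 273 and a summit 45 bp upstream of its nearest start. This placed it at percentile 99.3 of all genes with a peak. Rps26 followed at 23.3 (pileup 144), Rps14 at 21.6 (153), Rpl21 at 21.2 (168) and Rpl27 at 20.4 (126). Rps14, Rps26 and Rps19 are known from Diamond-Blackfan anaemia or the 5q- syndrome, disorders of red cell production in which an RP gene is mutated or lost. The gap from Rpl19 to Rps26 was wider than that between any other neighbours in this order.

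At the other end, Rplp1, an acidic stalk protein that binds elongation factors, was enriched 3.65-fold with a pileup of 45.2. It stood at percentile 8.10, while its stalk partners Rplp0 and Rplp2 reached 7.77 (pileup 92.2) and 7.30 (86.6). By fold enrichment the stalk proteins all lay under the all-gene median, whereas by pileup Rplp0 and Rplp2 lay above the all-gene median of 69.7. Rps10 had 5.55 (pileup 48.9), and it was the next lowest of the core genes. Rps19bp1, which is no RP, was the lowest member at 3.61 with a pileup of 22.6. Rpl7l1 and Rpl3l, given above, completed the 5 lowest.

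Other members with known roles lay between. Rpsa, a small subunit protein also described as a laminin receptor, had 12.4 (pileup 106). Rps19, the RP most often mutated in Diamond-Blackfan anaemia, had 14.6 (104). Rpl5 and Rpl11, which with 5S RNA hold Mdm2 in check when ribosome assembly fails, differed, at 9.0 (pileup 80.0) and 14.9 (115). Each of these values came from 1 peak in 1 library, and the difference was not tested.

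**Figure D2:**
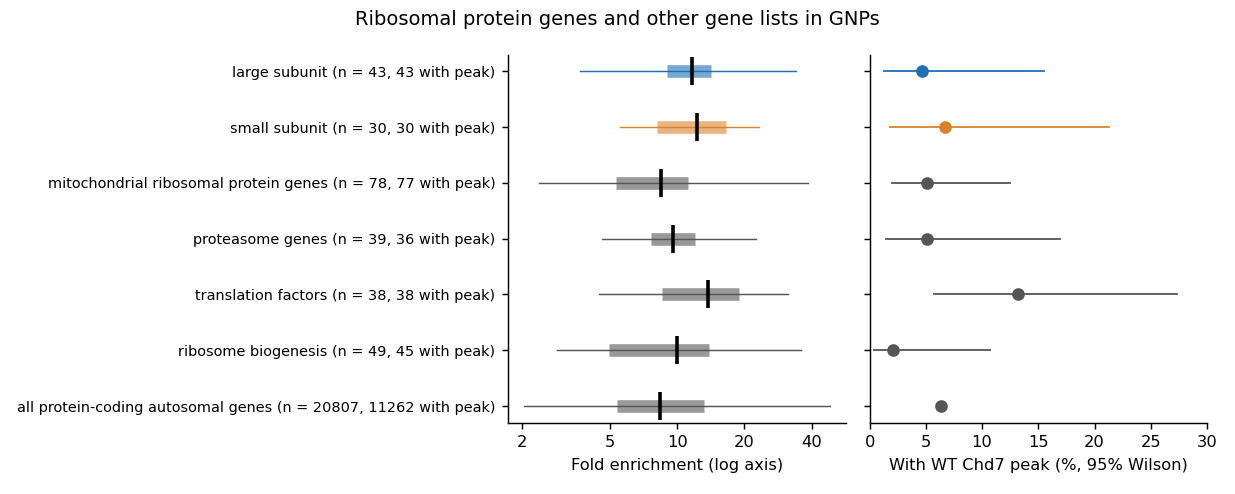
Left, fold enrichment of the strongest H3K27ac peak per gene on a log axis, with the median (black tick), the quartiles (thick bar) and the range (thin line) for each list. Right, share of genes with a WT Chd7 peak in percent with 95% Wilson intervals. RP genes of both subunits have medians of 11.6 and 12.3, between those of mitochondrial RP genes (8.44) and translation factors (13.7), and the Chd7 intervals of all lists overlap.

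Other genes of protein synthesis and turnover were compared. A peak lay at 77 of 78 mitochondrial RP genes (Mrpl and Mrps), 36 of 39 proteasome genes, 38 of 38 translation factors and 45 of 49 ribosome biogenesis genes. The median fold enrichment was 8.44, 9.53, 13.7 and 9.96, in that order. RP genes thus shared the near-complete acetylation of these lists, with a median below that of translation factors and above the other 3. The quartiles of all these lists overlapped those of RP genes.

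RP genes are compact. Their median length was 3.24 kb against 17.6 kb for all genes. A single peak covered 51 of the 79 genes with a peak (64.6%), against 54.7% of all genes with a peak, but windows grow with gene length and this share with them. The largest number of peaks, 8, lay at Rps14, whose annotated span of 31.4 kb is the longest of the members. The summit of the strongest peak lay within 500 bp of a protein-coding start in 76 of 79 (96.2%), against 70.2%. It lay downstream of that start in 57 (72.2%), against 71.1%, and the median position was 169 bp downstream against 177 bp. The summits of RP genes thus lay mostly just inside the transcribed side, as over all genes. In short genes the window leaves little room far from a start, so the share within 500 bp is not comparable with that of longer genes.

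**Figure D3:**
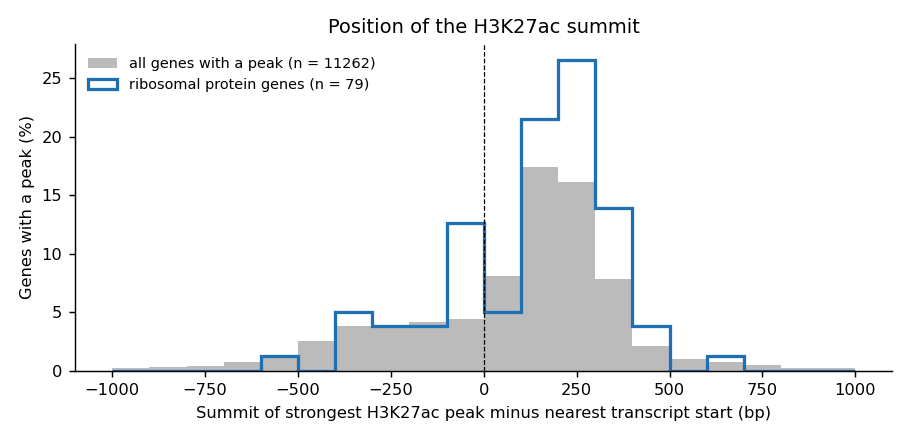
Histogram in 100 bp bins of the distance in bp from the nearest protein-coding transcript start of the gene to the summit of its strongest H3K27ac peak, positive downstream, as a percent of the genes with a peak. The outline shows the 79 RP genes and the grey bars the 11262 genes. Summits beyond 1 kb are not drawn, 1 RP gene (1.27%) and 24.2% of all genes, and both distributions have their mode at 100 to 300 bp downstream.

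RP genes often host small nucleolar RNAs in their introns, which guide the modification of ribosomal RNA. A snoRNA gene lay inside 28 of 88 members (31.8%, 56 snoRNAs), against 1.17% of all genes. Core genes with and without a snoRNA had like levels of H3K27ac. The median fold enrichment was 11.4 (quartiles 8.98 and 15.7) in the 28 core hosts and 11.8 (8.48 and 16.1) in the 45 other core genes. A divergent protein-coding start within 1 kb was found for 13 members (14.8%), against 10.4%. The 12 core genes with such a neighbour had a median of 14.9 (10.6 to 17.9), and the 61 without had 10.8 (8.48 to 15.0). The strongest peak of each of the 12 also lay within 1 kb of the neighbour's start, so the signals of the pair cannot be told apart. Core genes with and without CCGGAA had medians of 12.0 and 11.8. Those with and without a pyrimidine run of at least 8 bases in the 30 bases around the start had 12.4 and 10.8. The quartiles overlapped in each of these splits, and none of the differences was tested.

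A Chd7 peak lay at few RP genes, as at few genes in general. A WT Chd7 peak lay in the window of 4 of 88 members (4.55%, Wilson 1.78 to 11.1%), against 6.34% of all genes and 10.9% of the 11262 genes with an H3K27ac peak. The interval holds both values. Within 1 kb of a start, where gene length matters less, a Chd7 peak lay at 4.55% of RP genes and 4.21% of all genes. Chd7 lay at 4 of 78 mitochondrial RP genes (5.13%), 2 of 39 proteasome genes, 5 of 38 translation factors (13.2%) and 1 of 49 ribosome biogenesis genes. In Chd7-deficient GNPs, the control for the antibody, 0 of 88 RP genes had a peak, which allows a share of up to 3.41% by the limit of 3 counts (4.18% by the Wilson interval), and 0.0673% of all genes had one.

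Chd7 was found more often where H3K27ac was stronger, across all genes, and RP genes were set beside genes of like strength. The 11262 genes were split into 4 bins of about equal size by the fold enrichment of their strongest H3K27ac peak, and a Chd7 peak lay at 3.77%, 6.33%, 11.0% and 22.6% of genes from the weakest to the strongest bin. Among RP genes these counts were 0 of 3, 0 of 16, 1 of 31 and 3 of 29. In the strongest bin the RP share was 10.3%. Within 1 kb of a start, among genes with H3K27ac there, Chd7 lay at 4 of 78 RP genes (5.13%), against 8.56% of all such genes and 4.21% of all genes whether acetylated or not. In the bins with 31 and 29 RP genes, the RP shares, 3.23% and 10.3%, lay below those of all genes. The other bins held 3 and 16 RP genes, too few for a count of 0 to be set against the shares of all genes. With the shares of all genes weighted by how the 79 RP genes fell into the bins, 11.1 of them (14.0%) would have a Chd7 peak, against the 4 found (5.06%, Wilson 1.99 to 12.3%). The same weighting for peaks within 1 kb of a start gave 11.2%, against 5.13% (2.01 to 12.5%). The first of these values lay outside the counting interval of RP genes and the second inside it, and no test was run. The first counts peaks in whole gene windows, which grow with gene length, and RP genes are short. It is therefore not a comparison of like windows.

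**Figure D4:**
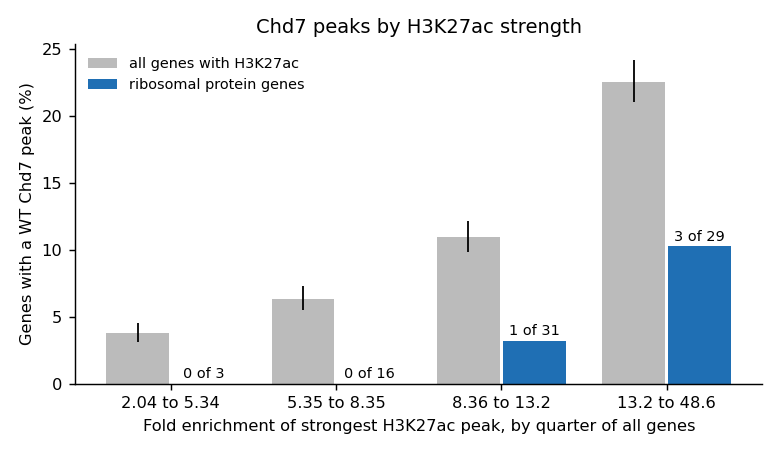
Share of genes with a WT Chd7 peak in percent, in 4 bins of all genes with H3K27ac, ordered by the fold enrichment of the strongest H3K27ac peak. Grey bars are all genes with 95% Wilson intervals, and blue bars are RP genes with their counts. The share of all genes rises from 3.77% to 22.6%, and the RP counts are 0 of 3, 0 of 16, 1 of 31 and 3 of 29. Peaks were counted in gene windows, which grow with gene length.

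The 4 Chd7 peaks at RP genes were mostly low by fold enrichment but not by pileup, and each had its own setting. Over the 1946 WT Chd7 peaks the median fold enrichment was 4.07 (quartiles 3.60 and 4.64). Of the 4, only that of Rps29 lay above this median.

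The peak of Rps29, chr12:69159191-69159620 in GRCm38, had 24 fragments at its summit (Poisson 15.4 to 35.7). It was enriched 4.14-fold over the local background with a −log10 q of 5.36, which ranked it 665 of 1946. Its summit lay 221 bp upstream of the start of Rps29, inside the Rn7s1 gene for 7SL RNA (chr12:69159295-69159594, plus strand), which runs the opposite way. A weak H3K27ac peak of fold enrichment 3.04 lay over Rn7s1, and the H3K27ac summit of Rps29, at 15.0, lay 517 bp from the Chd7 summit. The near-identical gene Rn7s2 had neither a Chd7 nor an H3K27ac peak. 7SL has copies elsewhere, and the authors kept reads with a single alignment, so reads that also match a copy were dropped. The effect of this on the peak here and on the lack of peaks at Rn7s2 was not tested. Binding at Rps29 and at Rn7s1 cannot be told apart.

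The peak of Rps19, chr7:24884127-24884575, had 25 fragments (16.2 to 36.9), an enrichment of 3.61-fold and a −log10 q of 4.38. Its summit lay 20 bp upstream of the principal start, and H3K27ac covered it whole. The peak of Rpl7a, chr2:26910957-26911260, had 21 fragments (13.0 to 32.1), an enrichment of 3.05-fold and a −log10 q of 2.48. It lay in coding sequence 319 bp downstream of the start and 46 bp from the H3K27ac summit, at a promoter shared with the Mediator subunit gene Med22. The peak of Rpl15, chr14:18270791-18271094, had 18 fragments (10.7 to 28.4), an enrichment of 2.94-fold and a −log10 q of 1.88, and ranked 1883 of 1946. It lay in an untranslated exon, 54 bp downstream of the nearest start, beside the divergent gene Nkiras1. All 4 peaks overlapped H3K27ac, and no peak of Chd7-deficient GNPs overlapped any of them.

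The bases around the 2 summits that lay furthest from an RP start show how unlike these places are. Each line gives 61 bases of GRCm38 centred on the summit, on the strand of the RP gene, with CG dinucleotides in capitals.
Rps29 (chr12:69159377-69159437, minus): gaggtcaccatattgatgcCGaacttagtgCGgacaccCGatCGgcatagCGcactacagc
Rpl7a (chr2:26911053-26911113, plus): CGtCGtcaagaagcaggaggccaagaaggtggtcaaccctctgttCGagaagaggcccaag
The Rps29 window held 5 CG dinucleotides and belongs to the 7SL gene, read on the strand opposite to it. The Rpl7a window held 3.

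The 4 calls rested on the threshold. At a −log10 q of at least 5, only Rps29 kept its peak, and at 10 none did. Over all genes the share with a peak fell likewise, from 6.34% to 2.37% and 0.255%. With the window widened to 50 kb on either side of the gene, 16 RP genes (18.2%) had a WT Chd7 peak, against 15.0% of all genes. Chd7-deficient GNPs had 0 there. RP genes thus lay near Chd7 peaks about as often as genes in general.

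Top2b, which relieves DNA supercoiling by passing one duplex through another, was mapped in CGNs and is a readout that the choice of genes did not use. In WT CGNs a Top2b peak lay in the window of 15 of 88 RP genes (17.0%, Wilson 10.6 to 26.2%), against 30.2% of all genes. In Chd7-deficient CGNs it lay in 38 (43.2%, 33.3 to 53.6%), against 40.5%. Windows grow with gene length and RP genes are short, so peaks within 1 kb of a start were also counted. There, WT CGNs had a peak at 10 RP genes (11.4%, 6.29 to 19.7%), against 12.2% of all genes. Chd7-deficient CGNs had one at 34 (38.6%, 29.1 to 49.1%), against 23.9%.

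Among genes with H3K27ac at a start in GNPs, Top2b lay at 10 of 78 RP starts (12.8%) in WT and 33 (42.3%) in Chd7-deficient CGNs. The shares over all such genes were 18.8% and 40.7%. The RP share in Chd7-deficient CGNs was thus near that of other acetylated promoters, and the RP share in WT CGNs was lower, with a Wilson interval of 7.12 to 22.0% that includes 18.8%. The count in Chd7-deficient CGNs over that in WT was 3.30 for RP genes and 2.16 for all genes with H3K27ac at a start. The first ratio rests on only 10 RP genes in WT, and the difference between the ratios was not tested.

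The 10 RP genes with a Top2b peak at a start in WT CGNs were Rpl3, Rpl7, Rpl7a, Rpl11, Rpl36, Rpl38, Rps6, Rps14, Rps20 and Rpsa. Of these, Rpl3, Rpl7, Rpl11, Rpl36 and Rps14 also had one in Chd7-deficient CGNs. These 5 shared genes are 50% of the WT list and 14.7% of the Chd7-deficient list. Over all genes with a peak at a start, the shared genes are 58.7% of the WT and 29.9% of the Chd7-deficient list. Rps6, the RP that S6 kinases phosphorylate, and Rpsa had a Top2b peak in WT only. Rpl19, Rpl5, Rplp1, Rplp2 and Rps19 were among the 29 that had one in Chd7-deficient CGNs only. At Rps19 that peak overlapped the Chd7 peak of WT GNPs, and at Rpl7a the Top2b peak of WT CGNs did. The 11 WT peaks at RP starts included 9 with their centre within 500 bp of the start, and 9 that overlapped GNP H3K27ac. Of the 35 peaks in Chd7-deficient CGNs, 33 were within 500 bp and 30 overlapped H3K27ac.

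**Figure D5:**
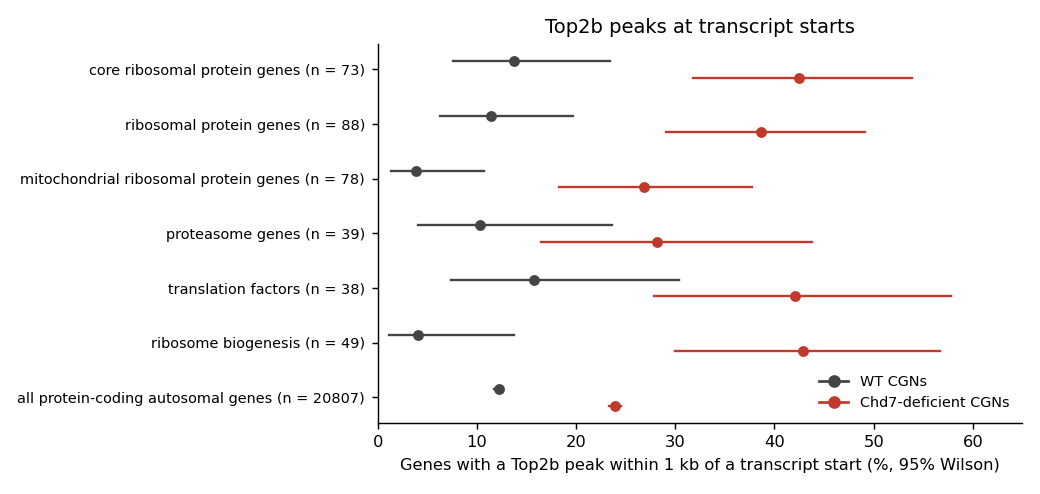
Share of genes with a Top2b peak within 1 kb of a protein-coding transcript start, in percent, with 95% Wilson intervals, in WT CGNs (grey) and Chd7-deficient CGNs (red). For all RP genes the shares are 11.4% and 38.6%, and for all protein-coding autosomal genes 12.2% and 23.9%. The share is higher in Chd7-deficient CGNs in every list drawn.

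Both libraries differed as wholes. Only 16.8% of WT and 13.3% of Chd7-deficient Top2b peaks overlapped a peak of the other genotype, and the share of peaks within 1 kb of a start was 14.1% in WT and 22.0% in Chd7-deficient CGNs. Mitochondrial RP genes went from 3 to 21 of 78, ribosome biogenesis genes from 2 to 21 of 49, translation factors from 6 to 16 of 38 and proteasome genes from 4 to 11 of 39. With 1 library per genotype, genotype and library cannot be told apart.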

How the data were processed

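ChIP-seq was done on GNPs (H3K27ac, Chd7) and CGNs (Top2b), 1 library per condition. The authors trimmed reads with Trim Galore, mapped them to mm10 with bowtie 1.0.0, keeping single alignments, and called peaks with macs2 (GNPs) or homer (CGNs). The deposited macs2 tables give the pileup, a coverage signal, and 3 columns whose decimal points had been lost and which therefore read as a score, namely the −log10 of p and q and the fold enrichment. Division by 100000 restored them, which was checked by recomputing p. The H3K27ac pileups are multiples of 0.941. The deposited Top2b lists hold positions without scores, so the rule naming the 5 highest could not be applied and all WT genes at starts were named. Total reads and the inputs were not used here, so depth is unknown.

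Peaks were assigned to genes of GENCODE M21 by their centre. Shares have Wilson intervals and pileups exact Poisson intervals. Promoter bases came from RefSeq GRCm38 at GENCODE starts. Members and lists were chosen with earlier results of these data known. Named genes were those with Chd7, those without H3K27ac, the 5 highest and 5 lowest, the paralogs and 7 chosen by role. Assignment was tested on simulated peaks, and 200 of 200 planted peaks were found. Scripts ran in Python 3.11.15 with matplotlib 3.10.9, pysam 0.24.0, scipy 1.17.1, pandas 2.3.3 and numpy 2.4.6.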

Additional observations from a re-analysis of the deposited data

How the results depend on the processing

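Of 31 alternatives to the threshold, window, peak position, gene set and measure of strength, 5 moved the value for RP genes and 26 moved it less. Relative to the reported value, the largest change among the 26 was for Top2b in WT CGNs, from 15 to 10 within 1 kb of any protein-coding start. By count it was for Top2b in Chd7-deficient CGNs, from 38 to 31 within 1 kb of the gene start. The share of all genes went from 40.5% to 20.3% under that setting. The 3 alternatives using any protein-coding start were chosen after seeing the data. RP genes with a WT Chd7 peak went from 4 to 1 at a −log10 q of at least 5, to 0 at 10 and to 16 within 50 kb. The share of all genes went from 6.34% to 2.37%, 0.255% and 15.0% under the same settings. RP genes with Top2b in WT CGNs went from 15 to 9 within 1 kb of the gene start. The median percentile by H3K27ac went from 64.9 to 54.7 by peak width. No paired analysis was possible because each condition had 1 library and no result came from a test. Depth could not be compared, since total reads were not analysed here.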
